A study of Homo sapiens with 6 samples.

Results

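Interferon stimulated genes are the genes that a cell switches on when interferon reaches it. The 56 genes described here were taken from a list of such genes, each by its brightest probe set, that is, the one whose log2 values averaged highest across the 6 arrays. All 56 were measured, among 19775 genes in all, and 0 of the probe sets used lists a second gene. The cells were MOLM-14, a long-established line of human acute myeloid leukaemia whose MLL gene is fused to AF9. For 3 samples the cells had 25 nM cortistatin A (CA) for 3 h, and for the other 3 they had dimethyl sulfoxide (DMSO), without CA, for the same time. Each of the 6 RNA samples was read on its own Human U133 Plus 2.0 array (Affymetrix), whose probes lie mostly toward the 3' end of transcripts. Both groups share the cell line, its fusion gene and the serum-containing medium, and the labels name no added interferon. They name 2 kinds of RNA extraction without saying which sample had which. All results are therefore from 1 line without a stated interferon stimulus. Since the replicates are described as wells, with no mention of separate cultures, the p-values rest on a spread between samples that may be technical only.

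Interferon binds a receptor on the cell surface, Janus kinases at the receptor phosphorylate STAT transcription factors, and these enter the nucleus. Type I interferon acts mainly through a complex of STAT proteins with IRF9 that binds the interferon stimulated response element, and interferon gamma acts mainly through STAT dimers that bind the gamma activated sequence. The products hinder viruses at many steps, cut proteins for display on MHC molecules and tag proteins with ISG15. CA inhibits CDK8 and CDK19, the kinases of the Mediator complex, and CDK8 is known to phosphorylate STAT proteins in cells treated with interferon. The comparison of CA with DMSO asks whether transcripts of this gene set differed after 3 h.

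Promoter sequences show what the set shares beyond the list it was taken from. RefSeq promoter windows of 300 bases on GRCh38.p14, with 250 bases before and 50 after the transcript start, were matched by symbol for 42 of the 56 genes, with up to 3 windows a gene. The core of the interferon stimulated response element was searched as GAAANNGAAA on both strands, and that of the gamma activated sequence as TTCNNNGAA, which reads the same on either strand. The first motif was present in at least 1 window of 31 of these 42 genes (73.8%), against 1195 of 27305 genes in the whole table (4.38%). By window, 61.0% of the windows of the set and 3.57% of all windows held it. The second motif was present for 13 of the 42 genes (31.0%), against 9.38% of all genes, or 25.4% of the windows of the set against 7.66% of all windows. Matches of both motifs overlapped each other in 6 windows of the set. Shares by role for the first motif were 13 of 16 matched antiviral effectors, 3 of 3 GBP genes and 4 of 5 antigen processing genes.

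Printed here are the windows of the genes with the smallest p-values in the comparison of CA with DMSO among those that hold the first motif, so that the element can be seen beside their values. Letters run 5' to 3' along the gene's strand, and capitals mark the match to GAAANNGAAA or to its reverse complement TTTCNNTTTC. GBP3 lies on chromosome 1 at chr1:89022817-89023116, minus strand, and its match covers bases 253 to 262 of the window. EPSTI1 is at chr13:42992192-42992491, minus strand, with the match at bases 201 to 210. TAP2 is at chr6:32838690-32838989, minus strand, with the match at bases 193 to 202. GBP4 is at chr1:89198893-89199192, minus strand, with the match at bases 247 to 256.
GBP3: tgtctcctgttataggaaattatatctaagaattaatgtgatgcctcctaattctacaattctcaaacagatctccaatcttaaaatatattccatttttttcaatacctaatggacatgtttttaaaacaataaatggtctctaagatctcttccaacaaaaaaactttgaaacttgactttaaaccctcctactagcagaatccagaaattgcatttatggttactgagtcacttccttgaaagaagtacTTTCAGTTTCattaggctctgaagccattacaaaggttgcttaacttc
EPSTI1: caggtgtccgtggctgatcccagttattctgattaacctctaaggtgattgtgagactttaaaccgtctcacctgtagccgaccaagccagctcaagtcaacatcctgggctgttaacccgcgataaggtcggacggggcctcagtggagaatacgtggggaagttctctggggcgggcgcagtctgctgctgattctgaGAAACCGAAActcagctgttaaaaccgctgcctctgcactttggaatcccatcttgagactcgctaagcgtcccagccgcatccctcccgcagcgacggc
TAP2: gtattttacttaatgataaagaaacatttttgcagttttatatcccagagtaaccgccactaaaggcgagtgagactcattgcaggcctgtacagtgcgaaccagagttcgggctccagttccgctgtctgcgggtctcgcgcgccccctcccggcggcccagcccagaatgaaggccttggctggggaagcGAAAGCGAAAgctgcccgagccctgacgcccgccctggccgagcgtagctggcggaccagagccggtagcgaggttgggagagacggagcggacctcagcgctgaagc
GBP4: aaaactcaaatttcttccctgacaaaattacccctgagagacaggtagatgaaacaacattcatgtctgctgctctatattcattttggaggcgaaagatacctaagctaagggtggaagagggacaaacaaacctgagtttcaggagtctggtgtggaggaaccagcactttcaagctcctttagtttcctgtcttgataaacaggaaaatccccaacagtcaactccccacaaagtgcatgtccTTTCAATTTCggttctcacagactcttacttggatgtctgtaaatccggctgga
The motif reads TTTCAGTTTC in GBP3 and TTTCAATTTC in GBP4, both on the strand opposite to the gene. It reads GAAACCGAAA in EPSTI1 and GAAAGCGAAA in TAP2, on the gene's own strand. Neither of the 2 windows of XAF1, the gene with the smallest p of the set, held the first motif. A match is a description of letters and not a site shown to be bound.

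None of the 56 interferon stimulated genes passed the threshold of an adjusted p under 0.05 between CA and DMSO (limma, Benjamini-Hochberg adjustment over all genes), where 0.895% of all genes passed. Before adjustment, the limma p was under 0.05 for 9 of them, of which XAF1, IFI16, EPSTI1, GBP2, SP110 and TAP2 were higher in CA (6 genes) and GBP3, IFIT2 and CMPK2 lower (3 genes). These 9 are 16.1% of the set, where 11.6% of all genes had such a p, 7.09% higher and 4.5% lower. XAF1 came nearest to the threshold, at an adjusted p of 0.0525 and rank 182 among all genes by p. The median log2 change of the set was 0.02, against 0.0037 for all genes, and the quartiles were -0.055 and 0.098, against -0.067 and 0.070. Log2 changes ran from -0.34 for GBP3 to 0.37 for EPSTI1, with 32 above and 24 below 0. In bulk RNA, a change in how many cells express a gene and a change in RNA per cell cannot be told apart.

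**Figure D1:**
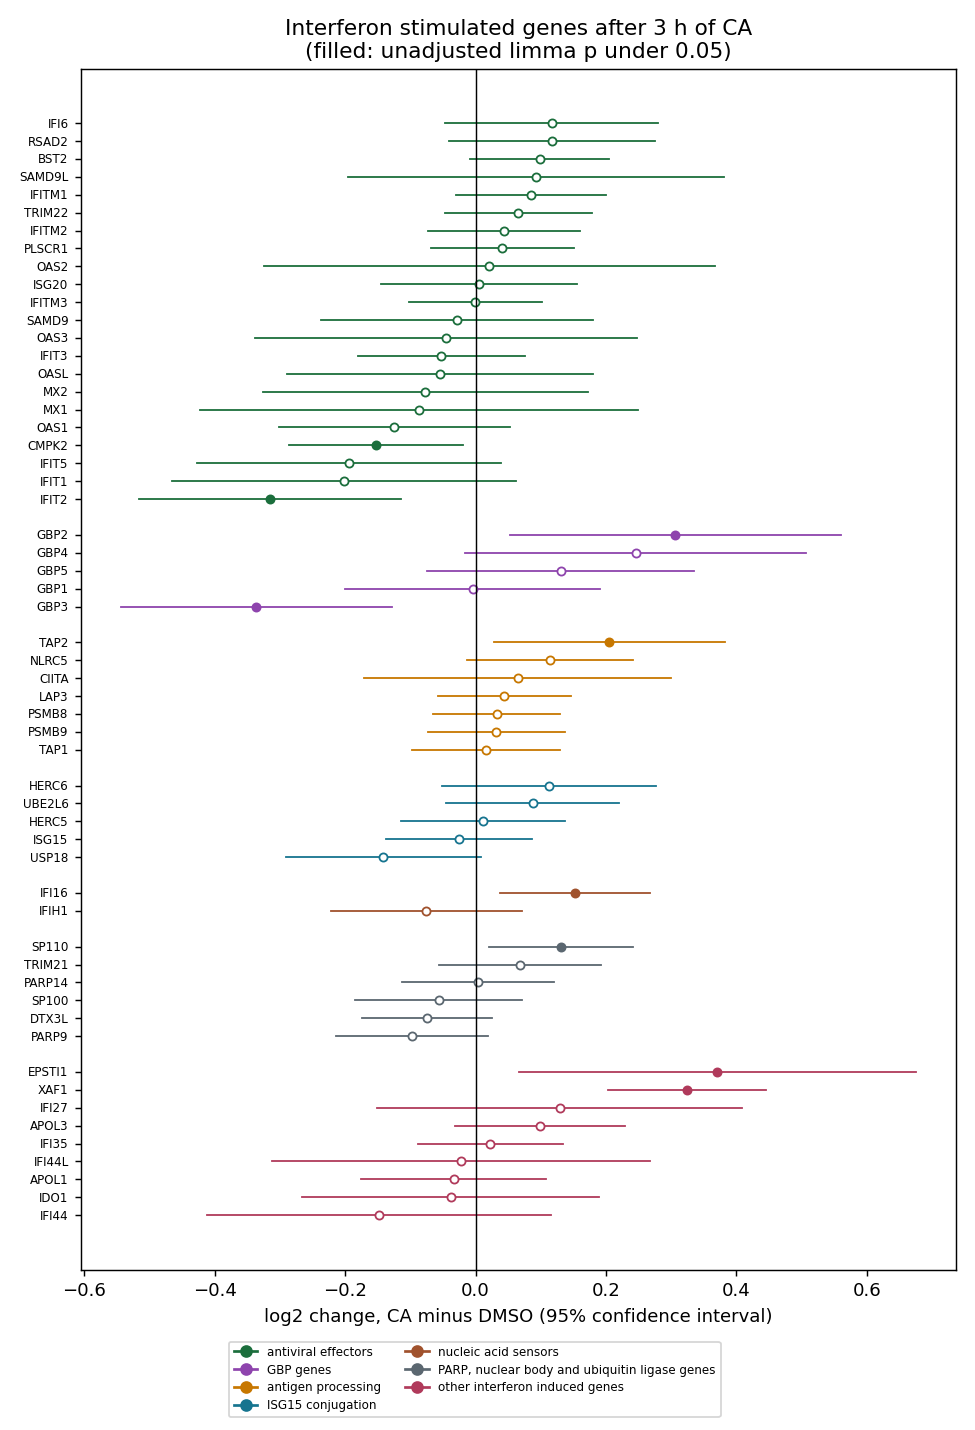
Log2 change, CA minus DMSO, of each of the 56 genes, with its 95% confidence interval from limma (n = 3 each), by subgroup. Filled points have an unadjusted p under 0.05 (9 genes), and none has an adjusted p under 0.05.

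Confidence intervals bound how large a change the arrays leave room for. They rest on the same spread between samples as the p-values, so they may be too narrow for separate cultures. Each is a 95% interval for 1 gene, not adjusted for the number of genes. The 95% confidence interval of the fold change, CA over DMSO, lay within 1.5-fold either way for 55 of the 56 genes, with EPSTI1 as the exception, and within 1.25-fold either way for 39. The SE of the log2 change had a median of 0.062 in the set and 0.071 over all genes. Median SDs in the set were 0.071 in CA and 0.058 in DMSO, against 0.091 in CA and 0.069 in DMSO for all genes. Of the 56 genes, 44 had a mean log2 value above 5.05, the median over all probe sets and arrays. The other 12 lay below it: IFIT1, MX1, OAS2, IFI44, IFI44L, IFI27, GBP1, GBP4, GBP5, EPSTI1, CIITA and APOL3. For these 12 an interval may understate the room for a change in RNA, since the processing compresses dim values. The same may hold for genes not far above 5.05, such as OAS1 and IFIT2, with means of 5.46 and 5.59. Markers of other cell types reached such values too, with means of 5.67 for KRT5 and 6.07 for HBB.

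**Figure D2:**
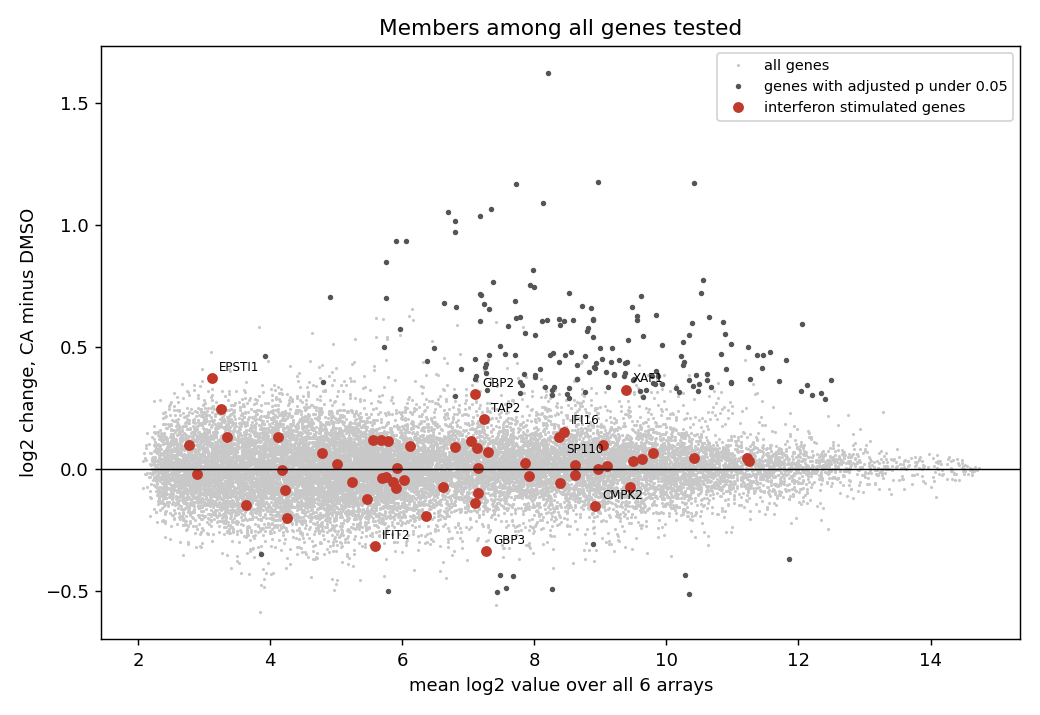
Log2 change, CA minus DMSO, against the mean log2 value over all 6 arrays. The 56 interferon stimulated genes (red) lie between -0.34 and 0.37, within the cloud of all 19775 genes (light grey), while the genes with an adjusted p under 0.05 (dark grey) reach 1.62.

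Array medians lay between 5.03 and 5.08 and correlations between arrays between 0.996 and 0.998. CA replicate 3 stood apart, at 19.7 on a first principal component that held 31.6% of the variance, with the other arrays between -8.25 and 0.73. It gave the highest value of 16 of the 56 genes (28.6%), against 26.0% of all genes. Without it, 0 of the 56 passed in limma, an unadjusted p under 0.05 was found for 6 on the higher and 5 on the lower side, and the median log2 change was 0.02. The 8 measured myeloid markers, such as LYZ, FLT3 and MPO, were all above the probe set median, and 2 myeloid markers were not analysed here. So were 2 of 6 markers of T and NK cells, 3 of 4 of B cells, 5 of 5 erythroid and megakaryocyte and 3 of 6 epithelial and fibroblast markers, so a value above this median does not show that a gene is expressed. CEBPA was the 1 marker that passed, higher in CA (adjusted p = 0.0173), and 0 of the 21 measured markers of the other cell types passed. Of those 21, 2 had an unadjusted limma p under 0.05, where 11.6% of all genes did.

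Across the 56 genes the CA values did not overlap the DMSO values for 17, with CA above for 12 and CA below for 5. This is 30.4%, where the groups did not overlap for 19.3% of all genes, 11.8% with CA above and 7.53% with CA below. Among genes above the probe set median it was 16 of 44 in the set (36.4%) and 24.9% of all such genes. Per array, the median deviation of the set from the mean of the DMSO arrays was 0.02, 0.0033 and 0.04 in CA replicates 1, 2 and 3, against -0.0049, 0.01 and 0.0017 in DMSO replicates 1, 2 and 3. For all genes it was -0.0024, 0.0026 and 0.023 in the CA arrays, against -0.0033, 0.0028 and 0.0014 in the DMSO arrays.

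**Figure D3:**
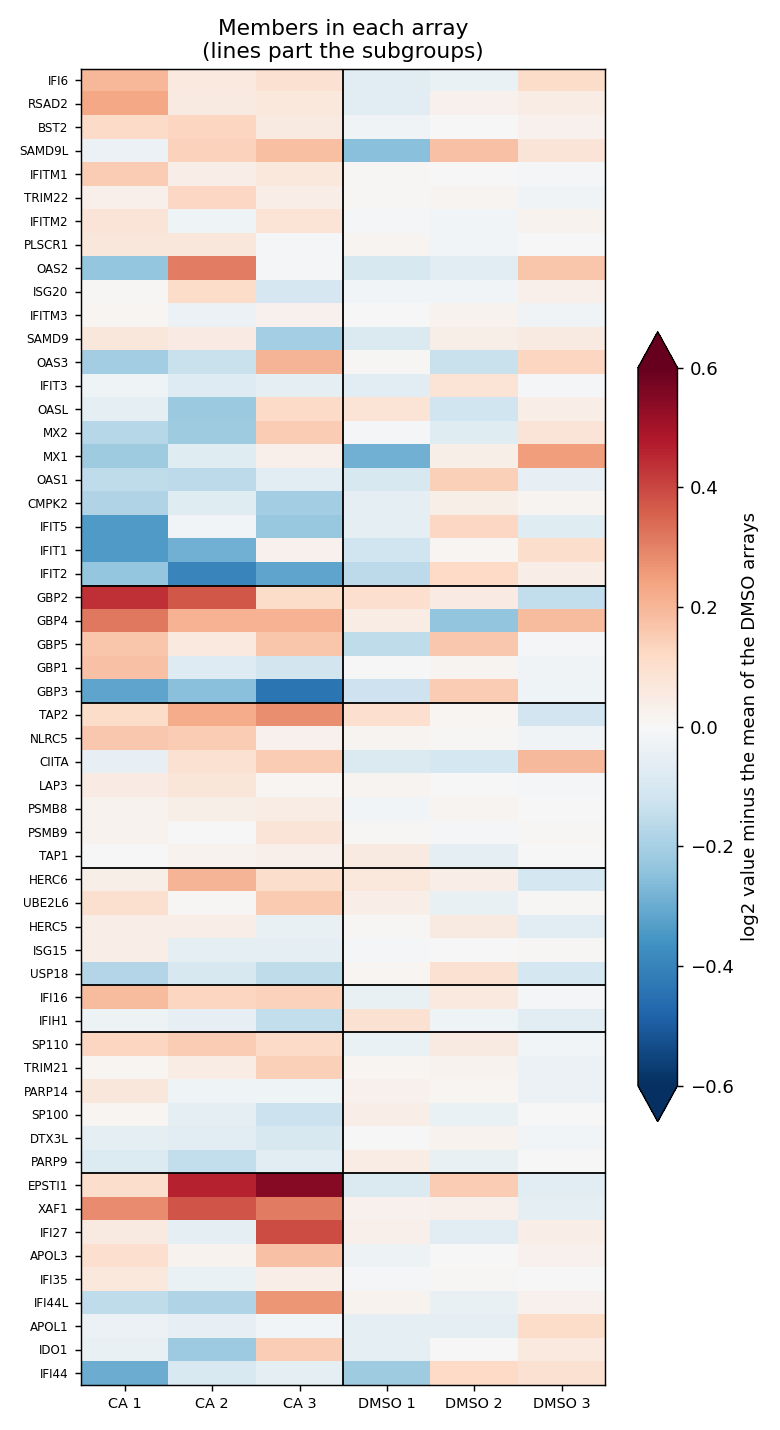
Log2 value of each of the 56 genes in each array minus the mean of the 3 DMSO arrays, CA arrays on the left, with lines between the subgroups. XAF1, IFIT2 and GBP3 keep 1 colour over the 3 CA arrays, and the rows of GBP2 and GBP3 are more strongly coloured in CA than those of PSMB8, PSMB9 and TAP1.

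Of the 22 antiviral effectors, which act on viral entry, genomes, transcripts and budding, 0 passed the threshold. At an unadjusted limma p under 0.05, 0 of them were higher and 2 lower (7.09% and 4.5% of all genes). The effectors had a median log2 change of -0.014 (0.020 without DMSO replicate 3 and 0.0070 without CA replicate 3), with 10 above and 12 below 0. Of their confidence intervals, 14 of 22 lay within 1.25-fold either way. IFIT2, an RNA-binding protein that hinders viral translation, had log2 values of 5.51, 5.35 and 5.43 in CA, against 5.59, 5.86 and 5.79 in DMSO. The 3 CA values lay below the 3 DMSO values, by 0.0745 between the nearest 2. The ratio of CA to DMSO was 0.804 (95% confidence interval 0.699 to 0.924, adjusted p = 0.227). Its second probe set, below the probe set median, had a log2 change of -0.23.

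The other IFIT genes, of the same RNA-binding family, pointed the same way with smaller differences. Log2 changes were -0.20 for IFIT1, -0.19 for IFIT5 and -0.053 for IFIT3, with adjusted p between 0.509 and 0.751 in limma and overlapping groups in each. All 7 probe sets of the 4 genes had log2 changes below 0, with 0 above. This family was singled out after its values were seen, and none of its genes passed the threshold.

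CMPK2, a mitochondrial nucleotide kinase encoded next to RSAD2, had log2 values of 8.81, 8.92 and 8.78 in CA, against 8.94, 9.03 and 9.01 in DMSO. The groups did not overlap, and the ratio was 0.899 (0.820 to 0.987, adjusted p = 0.373). RSAD2, the radical enzyme viperin, lay the other way at the probe set used, with a log2 change of 0.12 (adjusted p = 0.558) and groups 0.0091 apart. The second probe set of RSAD2, below the probe set median, had a log2 change of -0.094. IFITM2, which keeps viruses from fusing with endosomes and was the brightest of the effectors, had 10.47, 10.37 and 10.47 in CA, against 10.39, 10.37 and 10.41 in DMSO. Its groups overlapped, and the ratio was 1.03 (0.951 to 1.12, adjusted p = 0.772).

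Among the remaining effectors the values at the probe sets used were spread on both sides of 0. The oligoadenylate synthetases, which activate RNase L, had log2 changes of -0.12 for OAS1, 0.02 for OAS2 and -0.045 for OAS3, and their inactive relative OASL had -0.055. MX1 and MX2, dynamin-like GTPases that block incoming viruses, had -0.086 and -0.077. IFITM1 had 0.085 and IFITM3 -0.00013. For BST2, which tethers budding virus to the cell, all CA values lay above all DMSO values, with a log2 change of 0.098 (adjusted p = 0.466). The same held for TRIM22, a ubiquitin ligase, at 0.066 (adjusted p = 0.647), and for IFITM1 (adjusted p = 0.561). Log2 changes were 0.12 for IFI6, 0.093 for SAMD9L, -0.028 for SAMD9, 0.041 for the scramblase PLSCR1 and 0.0053 for the exonuclease ISG20. Over all 9 probe sets of the OAS genes and OASL, 7 lay below and 2 above 0. Probe sets not used had -0.17 for ISG20, -0.16 for SAMD9, -0.13 and -0.19 for SAMD9L, and 0.014 and 0.028 for PLSCR1.

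The 5 GBP genes, which encode guanylate-binding GTPases that attack the vacuoles of intracellular microbes, included the lowest and some of the highest values of the set. None passed the threshold, and at an unadjusted limma p under 0.05 GBP2 was higher and GBP3 lower (7.09% and 4.5% of all genes). GBP3 had log2 values of 7.12, 7.19 and 7.00 in CA, against 7.32, 7.59 and 7.42 in DMSO. Every CA value was below every DMSO value, and the ratio was 0.792 (95% confidence interval 0.686 to 0.915, adjusted p = 0.209). GBP2 had 7.39, 7.32 and 7.06 in CA, against 7.05, 7.00 and 6.80 in DMSO. Its groups were parted by 0.0117 only, and the ratio was 1.24 (1.04 to 1.47, adjusted p = 0.347). Its second probe set, below the probe set median, had a log2 change of 0.25.

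GBP1, GBP4 and GBP5 were dim, with mean log2 values of 4.18, 3.26 and 4.12 over all arrays. Their log2 changes were -0.0043, 0.25 and 0.13 (adjusted p = 0.992, 0.458 and 0.618). The groups of GBP4 were parted by 0.0204. Probe sets of single GBP genes differed from each other. Those of GBP1 ran from -0.35 to 0.22, that of GBP5 not used had 0.30 and that of GBP4 not used had -0.022. Over the family, 7 probe sets lay above and 4 below 0, and 1 of 5 confidence intervals lay within 1.25-fold either way. The subgroup median of 0.13 ran from 0.055 to 0.17 with 1 array left out, with 0.055 without DMSO replicate 1. It was -0.015 over the 2 genes left without dim probe sets, so its direction depended on keeping the dim genes.

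The 7 genes of antigen processing all had log2 changes above 0 at the probe sets used, where 51.7% of all genes did. Of all genes above the probe set median, 53.5% did. TAP1, TAP2, PSMB8 and PSMB9 lie close together on chromosome 6, so the genes are not separate observations, and their shared direction was not tested. For TAP1, PSMB8, PSMB9 and CIITA the log2 change was smaller than its SE. The changes of the 7 genes lay between 0.016 and 0.20, with a median of 0.044 and 0 past the threshold. TAP2, a subunit of the transporter that carries peptides to MHC class I, had log2 values of 7.25, 7.36 and 7.42 in CA, against 7.24, 7.15 and 7.02 in DMSO. The lowest CA value and the highest DMSO value differed by 0.0082, and the ratio was 1.15 (95% confidence interval 1.02 to 1.30, adjusted p = 0.367). Its other probe sets had log2 changes of 0.16, 0.036 and -0.16. TAP1, the partner subunit, had a log2 change of 0.016 (adjusted p = 0.926).

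PSMB8, a catalytic subunit of the immunoproteasome, was the brightest of the set, with 11.25, 11.27 and 11.28 in CA, against 11.22, 11.25 and 11.24 in DMSO. The groups were parted by 0.0017 before rounding, and the ratio was 1.02 (0.956 to 1.09, adjusted p = 0.797). PSMB9, another such subunit, had a log2 change of 0.032, and the aminopeptidase LAP3 had 0.044. NLRC5 and CIITA, the activators of MHC class I and class II genes, had 0.11 and 0.064 (adjusted p = 0.476 and 0.843). CIITA was dim, and its other probe sets had log2 changes of 0.074 and -0.16. All confidence intervals but that of TAP2 lay within 1.25-fold either way, 6 of 7.

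**Figure D4:**
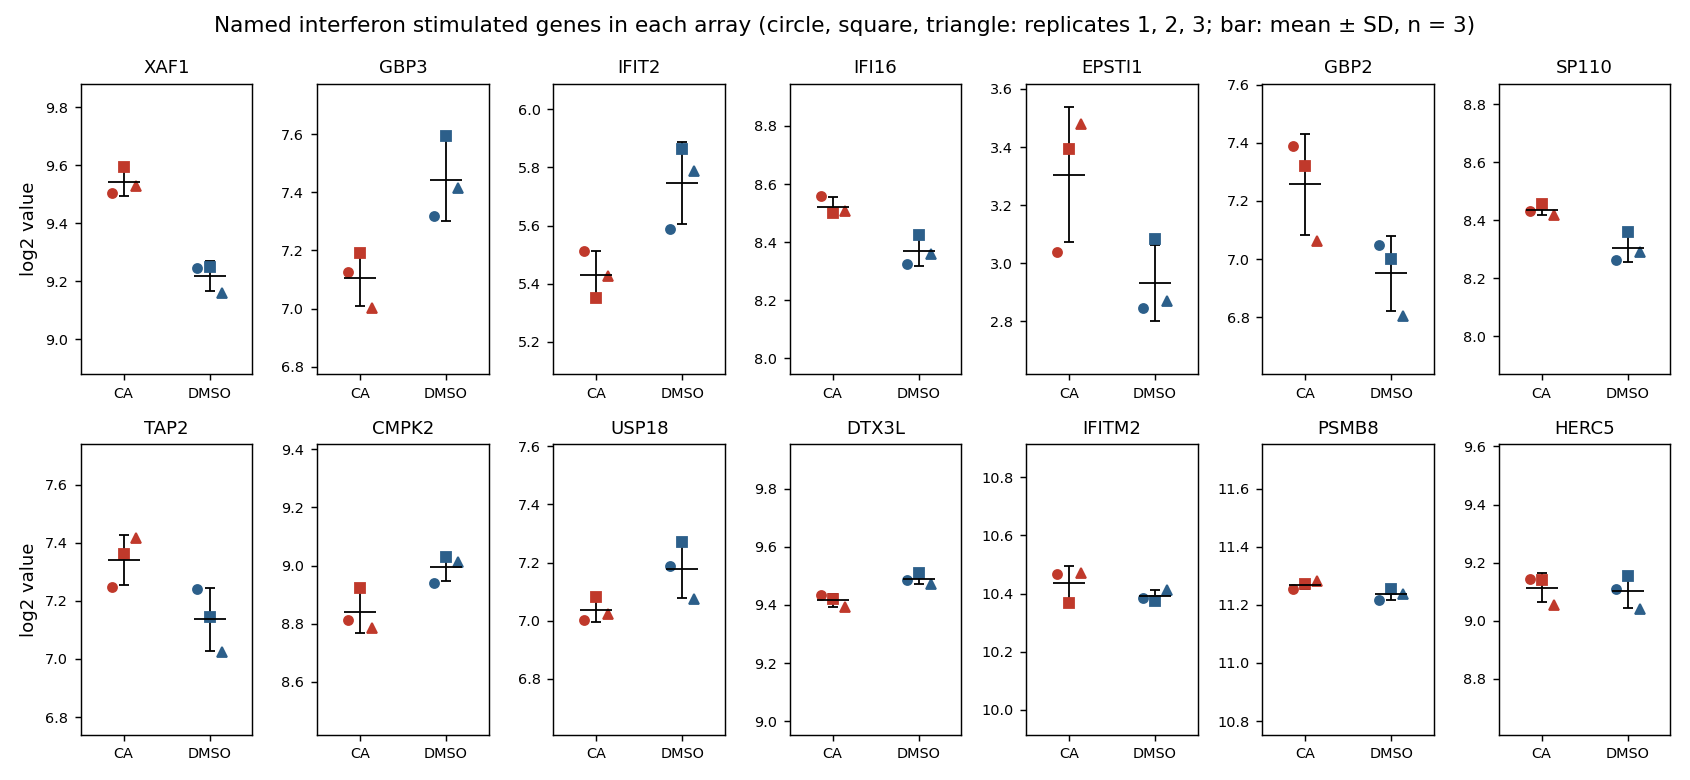
Log2 value in each array of the 14 genes named by rule, ordered by p, CA left of DMSO; symbols mark replicates 1, 2 and 3, bars the mean ± SD (n = 3), and every panel spans the same height on the log2 scale. The CA and DMSO values of XAF1 are apart by more than their SDs, and those of HERC5 and IFITM2 overlap.

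Genes of ISG15 conjugation showed no difference that the test could resolve: 0 of 5 passed, 0 had an unadjusted limma p under 0.05, and all 5 confidence intervals lay within 1.25-fold either way. USP18, the protease that removes ISG15 and dampens the interferon receptor, had log2 values of 7.00, 7.08 and 7.02 in CA, against 7.19, 7.27 and 7.07 in DMSO. Groups overlapped slightly, and the ratio was 0.907 (0.817 to 1.01, adjusted p = 0.455). HERC5, the human ISG15 ligase, had 9.14, 9.14 and 9.06 in CA, against 9.11, 9.16 and 9.04 in DMSO (ratio 1.01, 0.924 to 1.10, adjusted p = 0.955). ISG15 itself, the ubiquitin-like tag, had a log2 change of -0.025, its conjugating enzyme UBE2L6 had 0.087 and HERC6, a relative of HERC5, had 0.11.

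The 2 sensors differed in sign at the probe sets used. IFI16, a sensor of DNA, had log2 values of 8.56, 8.50 and 8.51 in CA, against 8.32, 8.43 and 8.36 in DMSO. All CA values were above all DMSO values, and the ratio was 1.11 (1.03 to 1.20, adjusted p = 0.310); its other probe sets had log2 changes of 0.072 and 0.12. IFIH1, the MDA5 sensor of long double-stranded RNA, had a log2 change of -0.075 (adjusted p = 0.684). Its other probe sets, both below the probe set median, had -0.27 and 0.13.

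Among the PARP, nuclear body and ubiquitin ligase genes 0 of 6 passed, and all 6 confidence intervals lay within 1.25-fold either way. SP110, a nuclear body protein, had log2 values of 8.43, 8.46 and 8.42 in CA, against 8.26, 8.36 and 8.29 in DMSO. The groups did not overlap at this probe set (ratio 1.09, 1.01 to 1.18, adjusted p = 0.358), but of the other 4 probe sets 2 had log2 changes below 0, at -0.22 and -0.17. DTX3L, a ubiquitin ligase that works with PARP9, had 9.43, 9.42 and 9.39 in CA, against 9.49, 9.51 and 9.47 in DMSO, with no overlap and a ratio of 0.950 (0.887 to 1.02, adjusted p = 0.553). PARP9 had a log2 change of -0.097, also without overlap (adjusted p = 0.509), while its second probe set had 0.25. Log2 changes were 0.0042 for PARP14, -0.057 for SP100 and 0.068 for TRIM21, the cytosolic antibody receptor.

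XAF1, an interferon induced antagonist of the apoptosis inhibitor XIAP, had the smallest p of the set. Its log2 values were 9.50, 9.60 and 9.53 in CA, against 9.25, 9.25 and 9.16 in DMSO. The lowest CA value was 0.252 above the highest DMSO value, and the ratio was 1.25 (95% confidence interval 1.15 to 1.36, adjusted p = 0.0525). All 3 of its probe sets gave similar values, with log2 changes of 0.32 at the one used and 0.36 and 0.30 at the others. It passed under 4 alternatives, among them the mean of its probe sets (adjusted p = 0.0249), and with any single array left out its adjusted p was between 0.104 and 0.232.

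EPSTI1 had the largest change of the set but was dim, with log2 values of 3.04, 3.39 and 3.48 in CA, against 2.85, 3.08 and 2.87 in DMSO. CA replicate 1 lay below DMSO replicate 2, and the ratio was 1.29 (1.05 to 1.60, adjusted p = 0.344). Its other probe set had a log2 change of 0.015. The other genes of this subgroup had log2 changes between -0.15 for IFI44 and 0.13 for IFI27, with 0 at an unadjusted limma p under 0.05. They included IDO1, which degrades tryptophan, at -0.038, APOL1, which lyses trypanosomes, at -0.033, and IFI35, at 0.023.

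The 31 genes with the response element motif in a promoter window had a median log2 change of 0.0042, with 16 above and 15 below 0, against a median of 0.087, 8 above and 3 below for the 11 matched genes without it. These are counts of the genes matched and were not tested.

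The rest of the pathway was read from a list of 93 ligands, receptors, kinases, factors, sensors and targets, of which 8 were not analysed here. Of the 85 measured, 4 were higher in CA and 0 lower at an adjusted p under 0.05 (0.839% and 0.0556% of all genes), and without adjustment 14 genes on the higher side and 3 on the lower side had a limma p under 0.05 (7.09% and 4.5% of all genes). The 4 were IRF1, IRF8, CISH and CXCL10. The list was chosen with earlier results of these data known, so these counts cannot be read as an independent result. The list median log2 change was 0.0066.

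IRF1, a transcription factor that itself binds interferon response elements, had log2 values of 8.37, 8.34 and 8.38 in CA, against 7.68, 7.60 and 7.57 in DMSO. It rose 1.68-fold (1.55 to 1.81, adjusted p = 0.00559), while the largest ratio among the 56 genes was the 1.29 of EPSTI1. IRF8, which binds similar elements in myeloid cells, had 12.30, 12.39 and 12.35 in CA, against 11.71, 11.79 and 11.75 in DMSO, and rose 1.51-fold (1.39 to 1.63, adjusted p = 0.00894). The other 6 measured factors did not pass. IRF9 and IRF7, named here for their role and outside the rule by p, gave values on the lower side. IRF9, the DNA-binding partner of the STAT complex, had a log2 change of -0.22 (adjusted p = 0.544) and IRF7 had -0.047.

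CXCL10, a chemokine induced by interferon, had log2 values of 6.19, 6.46 and 6.48 in CA, against 5.62, 5.51 and 5.21 in DMSO, and rose 1.91-fold (1.54 to 2.36, adjusted p = 0.0332). CXCL11, of the same family, had a log2 change of 0.40 with overlapping groups (adjusted p = 0.429), and CXCL9 had 0.075 (adjusted p = 0.871). CISH, an inhibitor of cytokine receptor signalling, had 8.33, 8.29 and 8.36 in CA, against 8.02, 7.98 and 7.98 in DMSO, and rose 1.26-fold (1.17 to 1.36, adjusted p = 0.0307). None of these 4 calls (IRF1, IRF8, CISH, CXCL10) held in every fit that left out 1 array: IRF1 passed without CA replicate 2, CA replicate 3 or DMSO replicate 1, IRF8 passed without CA replicate 3, and CISH and CXCL10 passed in 0 of the 6.

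**Figure D5:**
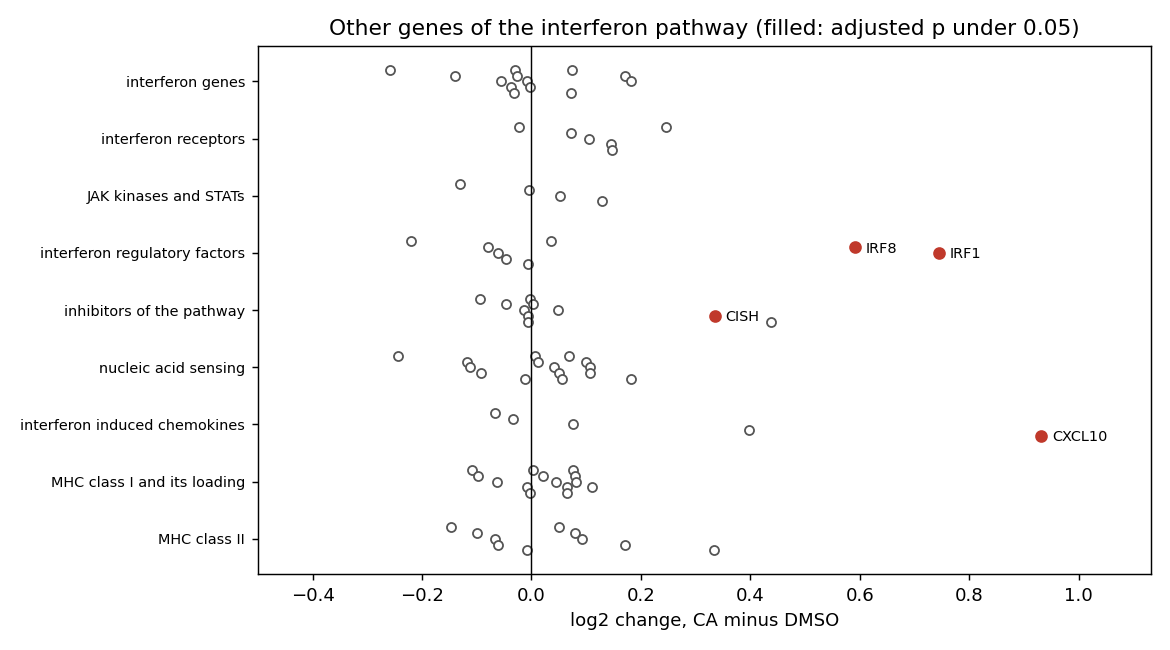
Log2 change, CA minus DMSO, of the 85 measured pathway genes by role, each point 1 gene, spread vertically only for legibility. Filled points have an adjusted p under 0.05: IRF1, IRF8, CISH and CXCL10.

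Upstream of these factors, 0 of 6 receptors, 0 of 4 measured kinases and STATs and 0 of 13 measured interferon genes passed in limma. At an unadjusted p under 0.05, 3 receptors (IFNAR2, IFNGR1 and IL10RB) and TYK2 were higher in CA, and of the interferon genes 1 was higher and 1 lower. Over all genes, 7.09% were higher and 4.5% lower at such a p. IFNAR2, a subunit of the type I interferon receptor, had log2 values of 8.77, 8.83 and 8.79 in CA, against 8.52, 8.53 and 8.60 in DMSO, without overlap and with a ratio of 1.19 (1.10 to 1.28, adjusted p = 0.0929). TYK2, a Janus kinase of that receptor, had log2 values of 8.43, 8.32 and 8.41 in CA, against 8.26, 8.29 and 8.23 in DMSO, without overlap (log2 change 0.13, adjusted p = 0.397). All 13 measured interferon genes lay below the probe set median, and IFNA21, a type I interferon, had the smallest p among them. It had 3.14, 3.06 and 3.08 in CA, against 3.40, 3.20 and 3.45 in DMSO, with all CA values below all DMSO values (log2 change -0.26, adjusted p = 0.269).

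Of 15 measured genes of nucleic acid sensing 0 passed in limma. At an unadjusted p under 0.05, 2 were on the higher and 2 on the lower side (7.09% and 4.5% of all genes). ZBP1, a sensor of left-handed nucleic acid, had the smallest p, with log2 values of 5.03, 5.03 and 4.87 in CA, against 4.80, 4.76 and 4.83 in DMSO. Its groups did not overlap (log2 change 0.18, adjusted p = 0.331), and its mean lay below the probe set median.

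Genes of MHC display gave no calls in limma. Of 14 measured genes of MHC class I and its loading, 0 passed and 0 had an unadjusted p under 0.05; TAPBPL, a peptide editor, had the smallest p. Its log2 values were 6.83, 6.92 and 6.88 in CA, against 6.74, 6.84 and 6.72 in DMSO, with overlapping groups (log2 change 0.11, adjusted p = 0.486). B2M, the light chain of MHC class I, had a log2 change of -0.063 (adjusted p = 0.637). Of 10 MHC class II genes 0 passed. HLA-DQA1, a chain of an MHC class II molecule, was the 1 gene with an unadjusted p under 0.05 (11.6% of all genes). It was dim, with 4.57, 4.52 and 4.78 in CA, against 4.46, 4.08 and 4.34 in DMSO, without overlap (log2 change 0.33, adjusted p = 0.347). Probes of HLA genes may read alleles and relatives unequally, so single HLA values are uncertain.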

How the data were processed

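The deposited values are log2 expression levels, 1 per probe set and array. Per the submitters' processing notes they come from RMA and affy, whose versions are not given in the sources used. RMA corrects background, equalises the distributions of the arrays and summarises probes, so small global shifts are removed and dim values are compressed. Depth has no meaning for arrays, and their number (3 per group) limits the precision. Of 54675 probe sets, 62 controls were left out. Genes came from the platform annotation: 41091 probe sets list 1 symbol, 1801 several and 11721 none. Each of 19775 genes was represented by its brightest probe set over the 6 arrays. The comparison of CA with DMSO used lmFit and eBayes of limma 3.58.1 (R 4.3.3). P-values were adjusted across every gene by the Benjamini-Hochberg method, and 0.05 was the threshold. An exact permutation test of 3 against 3 arrays cannot go below 0.1 and was not used.

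The 56 genes, their subgroups, the pathway list and the marker lists were chosen with earlier results of these data known. Full values are given for genes with an unadjusted p under 0.05 and for the gene with the smallest p and the brightest gene of each subgroup, and for pathway genes that passed or had the smallest p of their role; the rest are given by log2 change and, for some, adjusted p. Promoter windows are from RefSeq. Alternatives changed the probe set rule, the dim probe sets, the variance model, array weights, centring, the replicate block and the arrays included.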

Additional observations from a re-analysis of the deposited data

How the results depend on the processing

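Of the 56 interferon stimulated genes, 0 passed in 11 of 15 alternatives and 1, XAF1, passed in the other 4: the mean of the probe sets of a gene (adjusted p = 0.0249), no dim probe sets (0.0161, 44 of the 56 measured), an intensity trend with robust variances (0.00129) and array weights (0.0413), all by limma. With 1 array left out, 0 of the 56 passed and their median log2 change ran from 0.01 to 0.03. That median was 0.034 with arrays centred on their medians. Among the genes given in full, reversed directions were SP110 at -0.023 as the mean of its probe sets, and HERC5, which ran from -0.019 to 0.040 with 1 array left out. The median log2 change turned sign under some alternative in every subgroup but antigen processing. It was -0.015 for GBP genes without dim probe sets (0.13 as reported). For antiviral effectors (-0.014) it was -0.063 as the mean of probe sets, further below 0. With array weights it was 0.0020, with arrays centred 0.00074 and with 1 array left out up to 0.020. For the PARP subgroup (-0.026) it was 0.0033 as the mean of probe sets and 0.068 without _x_at, _s_at or _a_at probe sets, which also gave -0.075 for the sensors (0.039). For the other interferon induced genes (0.023) it was -0.0051 without dim probe sets and as low as -0.0033 with 1 array left out, and for ISG15 conjugation (0.012) as low as -0.019 with 1 array left out. The cause was not tested.

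Over all genes, 177 passed as reported. In a fit of all 54613 probe sets, 120 probe sets passed. The number of genes that passed was 74 when probe sets with the suffixes _x_at, _s_at or _a_at were left out. It was 351 of 12514 genes without dim ones, 546 with the trend, 245 with array weights, and 1 to 112 with 1 array left out. Of the pathway list 4 passed as reported, 2 over all probe sets, 6 without dim ones and 6 with the trend, which added IFNAR2 and SOCS1, and 0 to 2 with 1 array left out. Deviations from the group means correlated at 0.04, 0.22 and 0.25 between arrays with the same replicate number. Between the other CA and DMSO arrays they correlated at -0.26 to 0.09, and CA replicate 1 correlated best with DMSO replicate 2 (0.09). These values do not settle whether the replicate number marks samples handled together, and the labels do not say. With that number as a replicate block, 6 genes passed in all, 0 of the 56 and 0 of the pathway list.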
